A study of Mus musculus with 4 samples.

Results

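The genes described here present peptides on the cell surface through the major histocompatibility complex (MHC). They are 10 mouse genes: B2m, H2-D1, H2-K1, H2-T23, Tap1, Tap2, Tapbp, Psmb8, Psmb9 and H2-Eb1. All probes carrying these gene symbols were taken, which gave 19 probes of the 45263 used and 10 genes of 28850 on the arrays. B2m, H2-D1 and H2-Eb1 were picked because their signal differed between the groups compared here, so their values are a description and carry no test. The other 7 genes complete the pathway around them.

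RNA of whole lenses taken at postnatal day 6 was measured with MouseWG-6 v2.0 BeadChips from Illumina, 1 lens per replicate, on 2 Celf1 cKO arrays (A and B) and 2 Control arrays (A and B). Control mice carried 1 lacZ knock-in allele of Celf1 (Celf1 lacZKI/+). Celf1 cKO mice carried the same knock-in allele over a floxed allele that loses exon 5, together with Pax6GFPCre, in which Pax6 control sequences drive Cre in the surface tissue that gives rise to the lens and in some tissues outside it. The mice were of mixed C57BL/6J and FVB background, and nothing states that littermates or a single sex were used. With 2 arrays per group an exact permutation test cannot reach p = 0.05. The limma p-values below set each difference against the spread between these 4 lenses only, a spread pooled in part over all kept probes.

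The 4 arrays differed by more than the floxed allele. The 4 Celf1 probes that were above background were reduced in Celf1 cKO lenses by 1.31 to 1.79 on the log2 scale (limma adjusted p = 0.0073 to 0.014). All 4 Celf1 calls were lost without Control B and without a detection filter, and 3 of the 4 without Control A. Without normalization 3 of the 4 were lost as well, with differences of -0.46 to -0.48. Lens genes were detected on every array, with all 10 probes of 9 lens marker genes above background, of which the beaded filament gene Bfsp2 was called reduced (-0.76, limma adjusted p = 0.027). The Bfsp2 call was lost in all 4 fits without 1 array, without a detection filter and without normalization (-0.15), and the number of lens probes called reduced ran from 0 without normalization to 7 in the deposited normalized table. More probes were above background on the cKO arrays, 16261 and 16925 against 14542 and 14180 on the Control arrays. The female transcript Xist was above background on both cKO arrays and on neither Control array (at least 4.20-fold to 8.83-fold higher in cKO over 4 probes) and the Y-linked gene Ddx3y was reduced, with intensities of 169.9 and 61.5 in cKO A and B against 460.6 and 322.0 in Control A and B. Ddx3y was above background on all 4 arrays, so both cKO arrays showed Xist and Ddx3y signals. The Y-linked gene Uty was above background on both cKO arrays and on neither Control array. Its readings were close to background, at 55.5 and 63.3 in cKO A and B against 50.3 and 45.6 in Control A and B. It was not called, and the Y-linked genes Eif2s3y and Kdm5d had no kept probe. Genotype, the sex-linked signals and the number of probes detected cannot be told apart in these samples.

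As background, MHC class I molecules show peptides from inside the cell to CD8 T cells. Each has a polymorphic heavy chain (H2-K1 and H2-D1 encode classical chains, H2-T23 the non-classical chain Qa-1) and a shared light chain, beta-2 microglobulin (B2m). The peptides are cut by the proteasome, whose interferon-inducible catalytic subunits include Psmb8 and Psmb9, are pumped into the endoplasmic reticulum by Tap1 and Tap2, and are loaded with the help of tapasin (Tapbp). MHC class II molecules, such as the one whose beta chain is encoded by H2-Eb1, show ingested peptides to CD4 T cells and are made mainly by professional antigen-presenting cells. The lens itself holds no blood vessels, although a transient net of vessels still surrounds it in newborn mice, and it is usually described as low in MHC molecules. The heavy chain and class II genes are among the most variable between inbred strains: C57BL/6 carries H2 haplotype b and FVB haplotype q.

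Each array probe is a 50-base sequence, so an inherited base change under it can lower its signal without any change in RNA. The haplotypes of these mice are not given, and their part in the results was not tested. The probe sequences are shown because the results differ between probes of 1 gene and between near-identical genes. The B2m probes matching transcript bases 321 to 370 and 322 to 371 (ILMN_1216746 and ILMN_2739999) share 49 bases, in capitals, and so report on 1 stretch of the transcript.
B2m 321: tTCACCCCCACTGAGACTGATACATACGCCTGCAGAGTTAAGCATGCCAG
B2m 322: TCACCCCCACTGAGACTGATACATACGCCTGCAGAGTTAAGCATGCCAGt
The files place the pair at chr2:121842516-121842565 and chr2:121842517-121842566 on the plus strand. The third B2m probe lies further along the transcript, from base 535, and only 22% of its bases are G or C. Its first 30 bases are as follows.
B2m 535: cttactttaaatattttatgcatgttttca
It is placed at chr2:121978495-121978544, too far from the others for 1 genome build. The build of these positions is not given in the sources used here, and they were not used for any comparison.

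The H2-D1 probes that gave signal match from base 954 (ILMN_2462745) and base 1084 (ILMN_2476267) of the transcript. The former is placed in 2 blocks within chr17:35401477-35401716, so it crosses an exon junction, and the latter lies at chr17:35401797-35401846. Capitals in the first line mark a run of 16 bases shared with a probe for the related class I gene H2-Q5. Only the first 30 bases of the other are shown.
H2-D1 954: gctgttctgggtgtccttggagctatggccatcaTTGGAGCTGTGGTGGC
H2-D1 1084: tgtctctccgagattgtaaagcgtgaagac
The whole H2-D1 1084 probe shares 34 bases with a probe for the predicted gene LOC547343, which was above background on 0 arrays. The third H2-D1 probe (base 889, ILMN_2608090) shares 37 bases with another H2-Q5 probe, and both were at background on all 4 arrays. The H2-Q5 probe that shares 16 bases with H2-D1 954 was above background on 4 arrays, at 49.1 to 79.1 units.

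The overlapping H2-T23 probes (bases 816 and 819, with 47 bases in common) each share 24 bases, in capitals, with a probe for the class I gene H2-K2.
H2-T23 816: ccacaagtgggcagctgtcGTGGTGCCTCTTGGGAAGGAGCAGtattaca
H2-T23 819: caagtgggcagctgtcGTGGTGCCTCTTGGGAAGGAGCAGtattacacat
The only H2-Eb1 probe (base 921, ILMN_1239102, chr17:34451133-34451182, plus strand) shares no run of 15 bases with a probe of another gene. Its first 30 bases are as follows.
H2-Eb1 921: gtctccatgccatgaaaacatgtcctgctt
Psmb8, Psmb9, Tap1, Tap2 and the Tapbp probe from base 1036 were free of such shared runs, whereas the Tapbp probe from base 2040 (ILMN_3155492) shared 15 to 22 bases with probes of 8 other genes.

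A probe was kept when its detection p-value was under 0.05 on at least 2 arrays, which left 11 of the 19 probes and 7 of the 10 genes. Of the 8 probes that were not kept, 5 were at background on all 4 arrays and 3 were above it on 1 array. A kept probe was called when its Benjamini-Hochberg adjusted p from limma was under 0.05, its log2 difference exceeded 0.58 in size and its mean log2 signal exceeded 4.6. By this rule 4 of the 11 kept probes were elevated in Celf1 cKO lenses (both overlapping B2m probes and 2 H2-D1 probes) and 1 was reduced (H2-Eb1). Over all 16262 kept probes 6.04% were called elevated, 5.5% were called reduced and 11.5% were called in either direction. All 5 member calls belong to the genes picked for this contrast, so the shares support nothing about the pathway. The 6 kept probes of H2-K1, H2-T23, Psmb8 and Tapbp gave 0 calls, and 0 of them had an unadjusted limma p under 0.05.

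**Figure D1:**
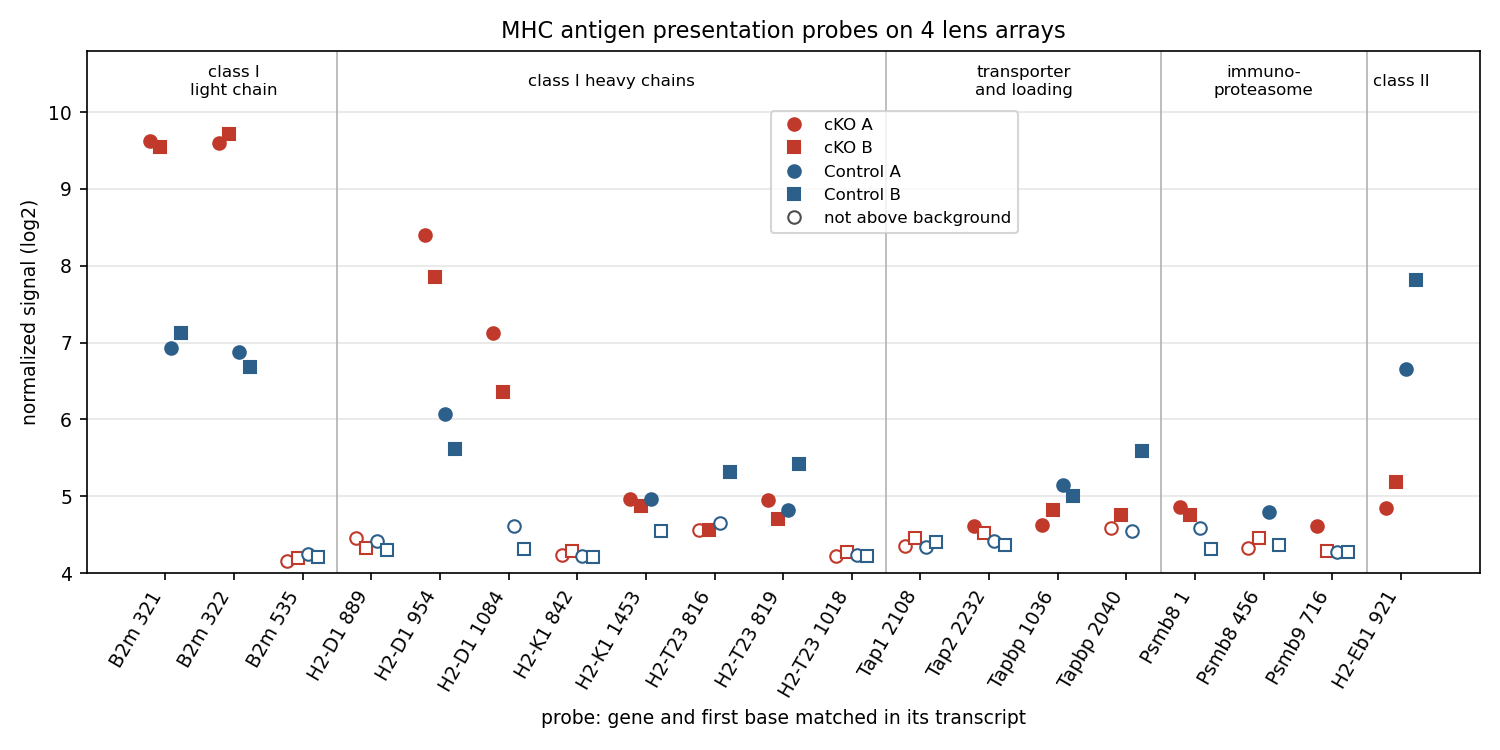
Normalized log2 signal (vertical axis) of all 19 member probes on the 4 arrays, grouped by role; each probe is named by its gene and the first transcript base it matches. Circles are replicate A and squares replicate B, red cKO and blue Control, open where the probe was not above background. The B2m pair and H2-D1 954 and 1084 sit higher on both cKO arrays, H2-Eb1 sits lower, and the other probes lie below 6 on every array.

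B2m, the light chain that every classical class I molecule needs, showed the largest log2 differences among the member probes detected on all 4 arrays. Before normalization, the intensity of the B2m 321 probe was 1032.9 ± 56.3 in cKO A and 1075.4 ± 31.9 in cKO B, against 133.5 ± 6.1 in Control A and 119.6 ± 11.3 in Control B (± standard error over beads of 1 array). Both cKO lenses were far above both Control lenses. The overlapping B2m 322 probe gave 1026.7 ± 55.2 and 1205.7 ± 53.0 in cKO A and B, against 130.2 ± 7.9 and 96.2 ± 13.3 in Control A and B. On the normalized log2 scale the former averaged 9.58 ± 0.05 (SD, n = 2) in cKO and 7.03 ± 0.14 in Control. Its difference was 2.56 (SE 0.16), or 5.88-fold. The latter averaged 9.66 ± 0.09 and 6.78 ± 0.14, a difference of 2.88 (SE 0.16), or 7.35-fold. The pair read nearly the same stretch and are not independent readings. The B2m 535 probe read 36.2 to 43.4 units and was at background on all 4 arrays, so it gives no level in either group.

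H2-D1, a classical class I heavy chain, moved in the same direction as B2m. The H2-D1 954 probe read 464.6 ± 17.2 in cKO A and 349.6 ± 22.6 in cKO B, against 88.8 ± 4.0 in Control A and 61.7 ± 5.6 in Control B. The groups did not overlap, and the cKO lenses differed from each other by more than the bead error. The normalized log2 means were 8.12 ± 0.39 and 5.83 ± 0.33 (SD, n = 2), a difference of 2.29 (SE 0.24), or 4.89-fold. The H2-D1 1084 probe read 206.6 ± 10.7 and 138.8 ± 8.6 in cKO A and B. In Control A and B it read 53.0 ± 3.0 and 40.8 ± 2.6, with detection p-values of 0.082 and 0.49, so it was not above background in either Control lens. Against the lowest signal of detected probes on the Control arrays, or the probe's own where that was higher, its cKO signal was at least 4.0-fold higher. For the H2-D1 889 probe the intensity was 40.4 to 49.8 units in both groups, at background throughout.

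**Figure D2:**
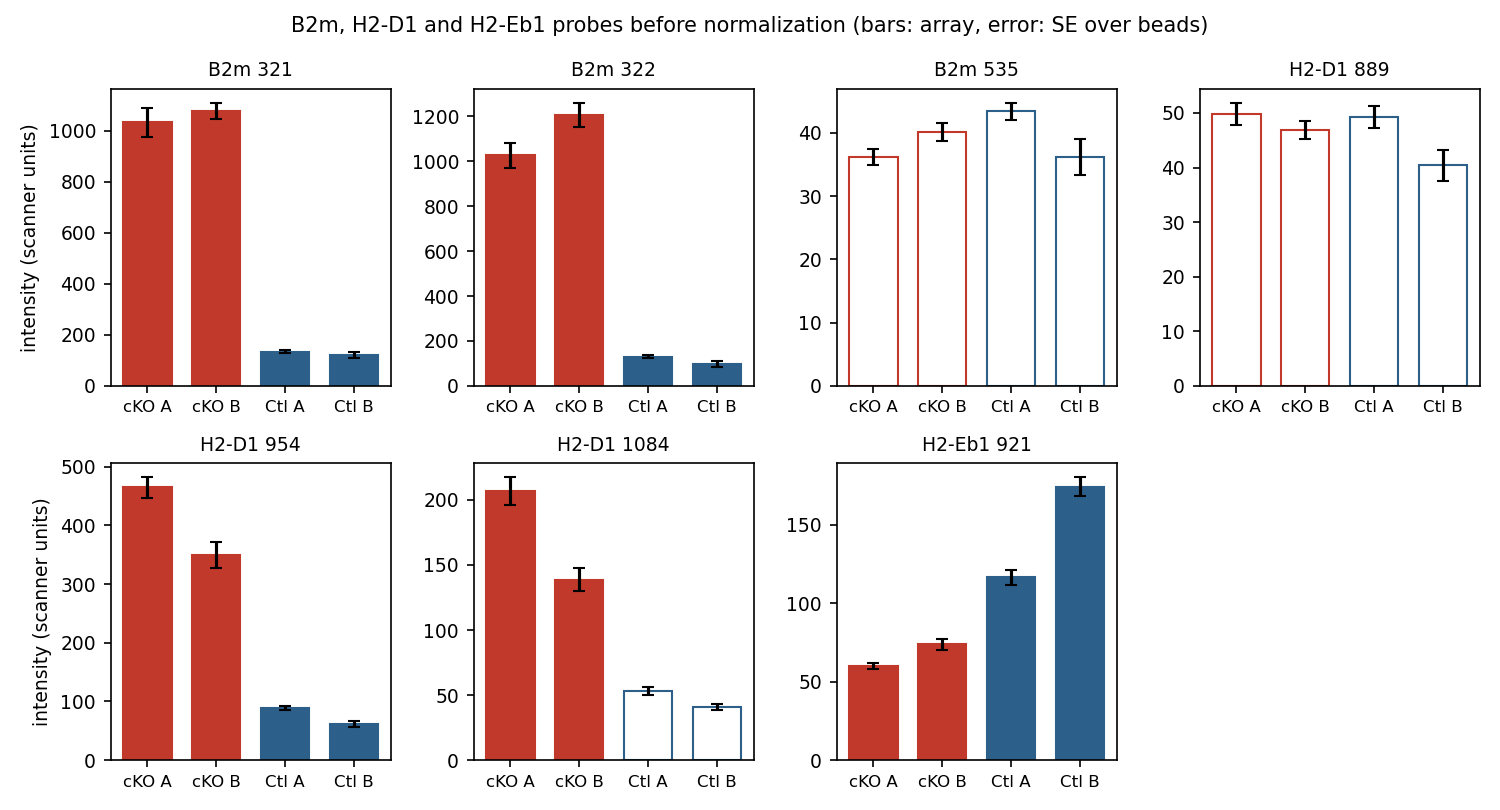
Intensity in scanner units, before normalization, of the 7 probes of B2m, H2-D1 and H2-Eb1, 1 bar per array with the standard error over its beads; vertical axes start at 0 and differ between panels. Open bars were not above background. In the B2m 321 panel the cKO bars stand at 1032.9 and 1075.4 and the Control bars at 133.5 and 119.6, and H2-Eb1 921 runs the other way.

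The other heavy chains among the members were near background. H2-K1, the second classical heavy chain of C57BL/6 mice, had 1 kept probe (base 1453, ILMN_2588139), which read 63.7 and 62.7 in cKO A and B and 59.1 and 46.1 in Control A and B. Its groups overlapped after normalization. The log2 difference was 0.17 (95% interval -0.27 to 0.60, limma adjusted p = 0.58), and it turned to -0.05 without Control B. For the overlapping H2-T23 probes, the non-classical heavy chain, the log2 differences were -0.42 (816, 95% interval -0.95 to 0.11, limma adjusted p = 0.25) and -0.29 (819, -0.81 to 0.23, limma adjusted p = 0.41). All H2-T23 readings of this pair lay between 52.7 and 62.9 units. Without Control A the 816 and 819 probes moved to -0.80 and -0.62, and without Control B the 819 probe turned to 0.01. The remaining probes of H2-K1 (base 842) and H2-T23 (base 1018) were at background on all 4 arrays. The intervals leave room for differences of the size set as the threshold, in 1 direction or the other, for each of these probes.

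The promoter sequences of the members, from RefSeq on GRCm38.p6, were set beside these values. The table held windows of 250 bases before to 50 after the start site for 9 of the 10 genes. The bases before the start of B2m (chr2:122147437-122147686, plus strand) follow, with a match to the core of an interferon-stimulated response element (GAAA, any 2 bases, GAAA, searched on both strands) in capitals from position -139.
B2m promoter: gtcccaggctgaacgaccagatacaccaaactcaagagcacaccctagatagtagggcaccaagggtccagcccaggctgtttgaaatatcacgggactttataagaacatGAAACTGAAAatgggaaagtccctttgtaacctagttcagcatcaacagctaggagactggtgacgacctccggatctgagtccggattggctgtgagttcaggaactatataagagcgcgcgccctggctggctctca
A match to the same pattern, on the other strand, was present in the H2-T23 window from position -124. Matches on either strand were present in 3.44% of all 32851 promoter windows. The 2 heavy chains H2-D1 and H2-K1 share a run of 47 bases, in capitals below, in the H2-D1 promoter (chr17:35262844-35263093, plus strand). Among the 32851 windows this run was present in 3, all of H2-D1 and H2-K1.
H2-D1 promoter: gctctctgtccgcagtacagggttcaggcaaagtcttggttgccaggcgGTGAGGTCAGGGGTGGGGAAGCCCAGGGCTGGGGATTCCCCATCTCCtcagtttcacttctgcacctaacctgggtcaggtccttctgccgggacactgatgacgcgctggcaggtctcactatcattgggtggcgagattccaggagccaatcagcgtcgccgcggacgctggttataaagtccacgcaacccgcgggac
A match to a gamma-activated site (TTCNNNGAA, in 8.3% of windows) was found in the Psmb8 window, at position -97. These matches are descriptions of the sequence and say nothing of factor binding.

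Genes for peptide supply and loading showed no call. Tapbp, the bridge between the peptide transporter and class I molecules, had 2 kept probes. The probe from base 1036 (ILMN_1226819) read 54.5 and 61.3 in cKO A and B and 62.6 and 51.9 in Control A and B. After normalization both cKO values (4.63 and 4.82) lay below both Control values (5.15 and 5.0), with a difference of -0.35 (95% interval -0.73 to 0.02, limma adjusted p = 0.18). The probe from base 2040, the one with many shared runs, differed by -0.40 (-1.13 to 0.32, limma adjusted p = 0.42). Control B alone was high for it (5.59 against 4.55 in Control A), and without Control A the difference was -0.96 (limma adjusted p = 0.045) and passed the call. Tap1 read 43.5 to 50.9 units, at background on all 4 arrays, and Tap2 read 42.7 to 54.1 units, above background only in cKO A.

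The immunoproteasome subunits were close to the detection limit as well. For Psmb8 the probe from base 1 (ILMN_1226683) read 60.3 and 59.3 in cKO A and B, both above background, and 52.5 and 40.7 in Control A and B, neither above background. This probe was thus kept through the cKO arrays alone. The bound set by the detection limit was a signal at least 1.04-fold higher in cKO, and the probe was not called. The other Psmb8 probe (base 456) was above background only in Control A, at 56.3 units. Psmb9 was above background only in cKO A, at 54.1 units, and read 39.8 to 45.2 units on the other arrays.

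H2-Eb1, the class II beta chain, ran opposite to B2m and H2-D1. It read 60.1 ± 1.9 in cKO A and 73.7 ± 3.3 in cKO B, against 116.5 ± 4.8 in Control A and 174.2 ± 5.8 in Control B. The groups did not overlap, but the Control lenses differed from each other by more than the cKO lenses did (log2 7.23 ± 0.81 in Control, 5.02 ± 0.24 in cKO; SD, n = 2). The difference was -2.21 on the log2 scale (SE 0.34), or 4.63-fold lower in cKO lenses. Without Control B it was -1.73, and the probe was then no longer called, whereas without Control A it was -2.84. Its partner chain gene H2-Ea, which strains of haplotypes b and q are known not to make, had no kept probe.

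Across the 11 kept member probes the groups did not overlap for 8, with cKO above Control for 5 and below for 3. Of these 8 probes 5 belong to the picked genes, and the 6 kept probes of the other genes split into 3 whose groups did not overlap and 3 whose groups did. Over all kept probes the groups did not overlap for 61.1%, with 32.4% above and 28.7% below, so separation of 2 against 2 arrays was common here. As fitted, the log2 differences of the 6 probes ran from -0.42 to 0.36. The 0.36 is that of the kept Psmb8 probe, which no Control array detected, so it is not a measured size. The 10th and 90th percentiles of all probes were -0.51 and 0.56, with a median of 0.02. The picked genes lie outside that range by the way they were chosen.

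Scaling between arrays changed which near-background members differed, but not the 5 calls. Without normalization the median difference of all probes was 0.59, with 97.7% of calls elevated, and with the same median on each array it was 0.55, with 97.3% elevated, compared with 52.3% under quantile normalization. Equal medians over the probes detected on all 4 arrays, chosen after seeing the data, gave -0.17 and 27.8%. Under that scaling both kept probes of H2-T23 (-0.92 and -0.70) and of Tapbp (-0.81 and -0.85) were called reduced. So were 2843 of all 16262 probes, against 894 under quantile normalization. The lowest and highest values of B2m 321 over the 10 settings that use all 4 arrays were 2.28 and 3.38, those of B2m 322 were 2.54 and 3.68, and those of H2-D1 954 were 1.78 and 3.01. For H2-Eb1 the range was -2.37 to -1.49.

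**Figure D3:**
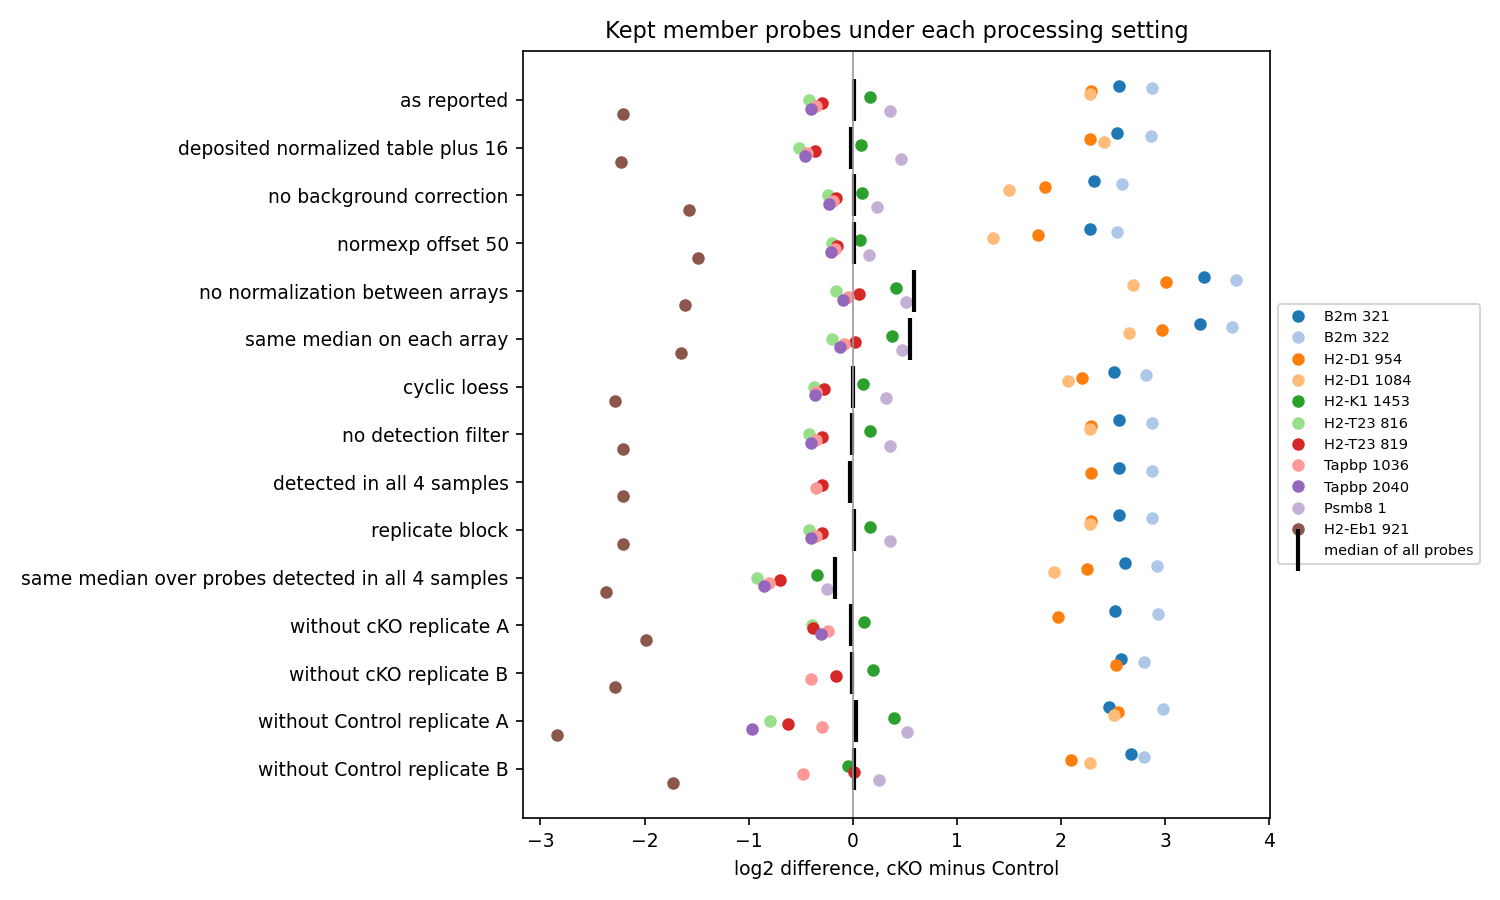
Log2 difference, cKO minus Control (horizontal axis), of the 11 kept member probes (coloured points) under each processing setting (vertical axis); the black bar is the median of all probes tested. The probes of the picked genes B2m and H2-D1 lie on the positive side and H2-Eb1 on the negative side. H2-D1 1084 and the Psmb8 probe are drawn at fitted values although no Control array detected them. The other probes lie on either side of 0 and reach -0.96 (Tapbp 2040 without Control A). Points are missing where a probe did not pass that setting's detection filter.

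Each array was also left out in turn, which leaves 1 group with a single array that is assumed to vary like the other group. For the picked genes the outcome is a description of how far the calls rest on single lenses and supports nothing about them. Both B2m probes were called in all 4 such fits. H2-D1 954 and H2-Eb1 were called when either cKO array or Control A was left out, but not without Control B, when 12 probes of the whole array were called in all. H2-D1 1084 was called without Control A and not without Control B. Without either cKO array it was not tested, since only the cKO arrays detect it. Without any detection filter, with 45263 probes tested and 137 called, only the B2m pair among the members remained called. Without cKO A, the cKO array with the higher Ddx3y signal, the differences of B2m 321, B2m 322, H2-D1 954 and H2-Eb1 were 2.52, 2.93, 1.97 and -1.99.

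The rest of the antigen presentation pathway was summarised from 3 lists with 50 genes, of which 46 were on the arrays and 23 had 30 kept probes. Of these 30 probes 3 were called elevated and 1 reduced (13.3%, beside 11.5% of all probes), with a median log2 difference of 0.19. The elevated Cd74 probe among them was kept through the cKO arrays alone. In the list of other class I heavy chains none of the 6 kept probes of 5 genes was called by limma, and 14 further genes of that list had no kept probe. H2-K2 was not in the list, and its probe, described with the chromosomal neighbours, was called elevated. The 6 kept probes of the list, of Cd1d1, H2-Q1, H2-Q5, H2-Q7 and H2-T3, all had positive differences (0.11 to 0.42). An H2-Q5 probe among them was kept through the cKO arrays alone, so the filter favoured its sign. With equal medians over the probes detected on all arrays 3 of the 6 were positive, with a median of -0.17, and without Control A 4 of the 6 were.

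Among 11 genes of class I loading and peptide supply, 9 had 11 kept probes, with 1 call in each direction and a median difference of 0.05. Lnpep, an endosomal aminopeptidase that trims peptides for cross-presentation, was elevated. It read 301.4 and 361.1 in cKO A and B against 128.2 and 94.6 in Control A and B, a log2 difference of 1.06 (SE 0.17, limma adjusted p = 0.011). The call was lost without cKO B, without Control B and without a detection filter. Nlrc5, a transcriptional activator of class I genes that the files list as AI451557, was reduced by 0.76 on the log2 scale (SE 0.17, limma adjusted p = 0.031). Its intensities before normalization overlapped (329.9 and 311.0 in cKO, 357.8 and 248.4 in Control), it turned to 0.11 without normalization and to 0.07 with equal medians on each array, and it was lost in each of the 4 fits without 1 array. The immunoproteasome subunit Psmb10 (-0.10 and 0.05), the PA28 subunit Psme2 (0.05) and the chaperone Calr (-0.17) were not called. The standard catalytic subunits Psmb5, Psmb6 and Psmb7 gave 0 calls by limma over 6 probes (-0.37 to 0.32).

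Of 16 other class II pathway genes, 9 had 13 kept probes, with 2 called elevated, 0 reduced and a median difference of 0.34. This median is that of an H2-DMa probe kept through the cKO arrays alone, as were both Cd74 probes. The median turned to -0.32 with equal medians over the probes detected on all arrays, and to -0.16 over gene averages. Under those equal medians 4 of the 13 probes were called reduced, beside 2843 of all 16262 probes. With 1 array left out the median ran from -0.05 (without cKO A) to 0.74 (without Control B). Ifi30, a lysosomal thiol reductase that unfolds antigens, read 137.5 and 164.4 in cKO A and B against 59.6 and 53.5 in Control A and B. Its log2 difference was 1.49 (SE 0.16, limma adjusted p = 0.0037), lost without Control B (0.056), and its other probe differed by 0.61 (limma adjusted p = 0.10). Cd74, the invariant chain of class II molecules, read 64.1 and 98.0 against 44.2 and 41.2, below detection in both Control lenses. The probe was kept through the cKO arrays alone, so its call is a description and carries no test. Its signal there was higher by a factor of at least 1.54. For the other Cd74 probe, also undetected in Control lenses, the factor was at least 1.34 (not called). The Cd74 call was lost without Control A and without Control B. It was also lost with a normexp offset of 50 and with cyclic loess normalization. The same held without a detection filter and with equal medians over the probes detected on all arrays. H2-Ab1, the beta chain of the other class II molecule, differed by -0.16 and -0.18 and was not called. H2-Eb2 was not above background on either cKO array and was kept through the Control arrays alone. Its signal was at least 1.38-fold lower in cKO, and it was not called. H2-Aa, Ciita and Rfx5 had no kept probe.

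**Figure D4:**
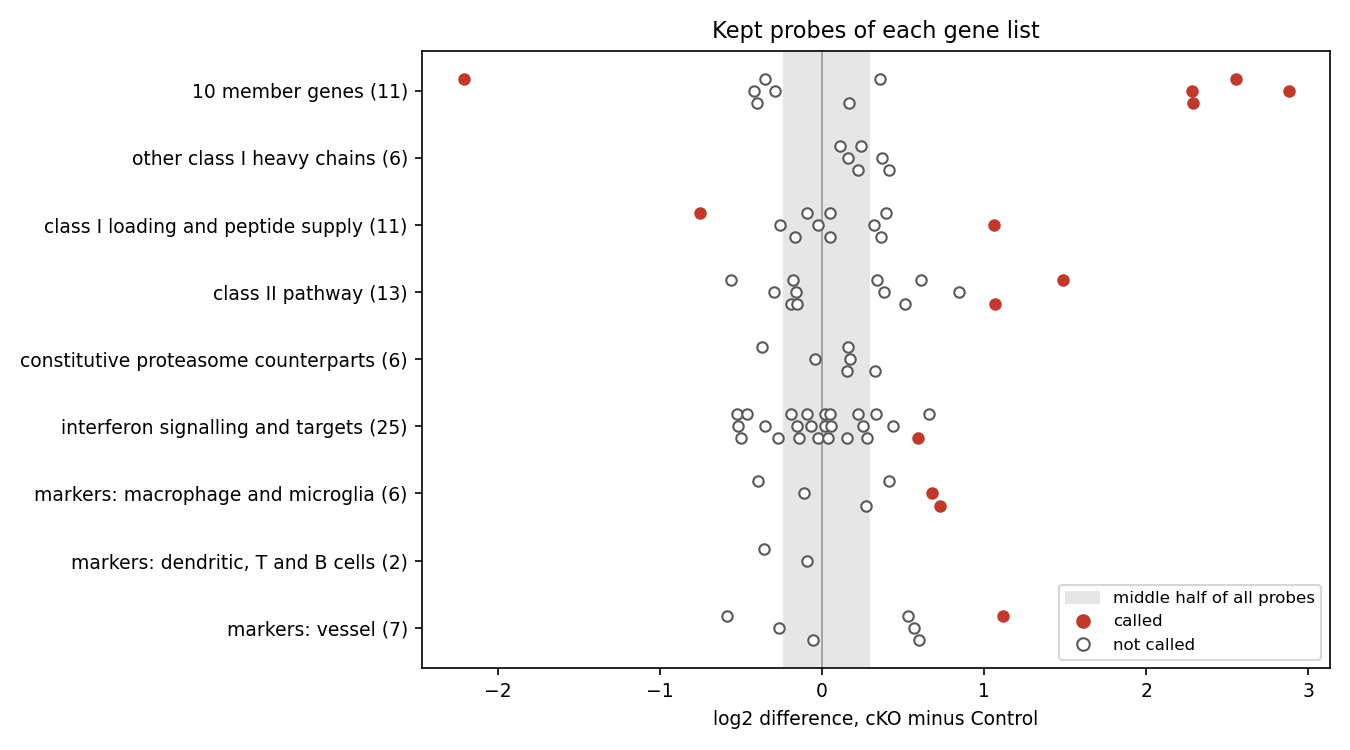
Log2 difference, cKO minus Control (horizontal axis), of each kept probe of the 10 members and of the other gene lists, with the number of kept probes in brackets; filled red points were called and open points were not. The grey band spans the 25th to 75th percentile of all 16262 probes (-0.24 to 0.29). The called member probes are those of the picked genes, so their distance from the other lists follows from the choice. H2-D1 1084, Psmb8, Cd74 and other probes that neither Control array detected are drawn at fitted values.

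Interferon induces class I genes in many cells, and its receptors, signalling kinases and target genes formed 1 list. Of 34 such genes 18 had 25 kept probes, with 1 call (beside 11.5% of all probes) and a median difference of 0.02, which was -0.33 with equal medians over the probes detected on all arrays. Ifitm3, an antiviral membrane protein, was the call (0.59, SE 0.15, limma adjusted p = 0.048), just past both thresholds. It was lost without any 1 of the arrays and without background correction. A normexp offset of 50, cyclic loess normalization or no detection filter removed it too. Isg15, Ifit1, Irf7, Mx1 and 12 others had no kept probe.

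Antigen presentation genes are abundant in immune cells, so markers of other cell types were read beside them. In whole lenses, fewer cells of a type and less RNA per cell cannot be told apart. For 14 macrophage and microglia genes, 7 and 10 of 23 probes were above background in cKO A and B, against 2 and 3 in Control A and B, and their summed background-corrected signal was 162.2 and 181.3 against 124.3 and 147.0. The complement gene C1qb and the lysosomal marker Cd68 were called, but neither was above background in a Control lens and both probes were kept through the cKO arrays alone. Their calls are thus a description and carry no test. Their signals in cKO were at least 1.22-fold (C1qb) and at least 1.26-fold (Cd68) higher. The probes of the list detected on all 4 arrays, of the macrophage genes Aif1 (-0.40) and Csf1r (-0.11), had negative differences and were not called. Another Aif1 probe and the complement gene C1qc, detected on both cKO arrays alone, were each at least 1.14-fold higher in cKO and were not called. Both calls were lost without Control A, without Control B, without background correction, with a normexp offset of 50 and without a detection filter. Equal medians over the probes detected on all arrays removed them too, and the median of the 6 kept probes then turned from 0.34 to -0.19. The Cd68 call was lost as well in the deposited normalized table and with cyclic loess normalization. Ptprc, Adgre1, Itgam, Cx3cr1, Lyz2 and Tyrobp, which define these cells, had no kept probe. Their part in the B2m and H2-D1 differences was not tested.

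For dendritic, T and B cells, 8 of 9 marker genes were on the arrays with 15 probes, 0 to 3 of which were above background on any array, and the summed signal was 66.3 and 75.7 in cKO A and B and 67.6 and 82.0 in Control A and B. Of 7 kept vessel probes 1 was called: the endothelial sialomucin gene Emcn was elevated (1.12, limma adjusted p = 0.017). The summed signal of the vessel list was 463.3 and 465.1 against 360.9 and 327.4. Cldn5 (0.53) and the Cdh5 probe detected in a Control lens (0.60) had positive differences and Kdr (-0.59, limma adjusted p = 0.061), Tek (-0.26) and Pecam1 (-0.06) negative ones, none of them called. The Emcn call was lost without cKO B, without Control B and without a detection filter. For lens epithelium, Foxe3, a transcription factor of these cells, was reduced (-0.79, limma adjusted p = 0.020). The call was lost when any 1 array was left out, without normalization (-0.26) and with the same median on each array. It was also lost without background correction, with a normexp offset of 50 and without a detection filter. Cdh1 (-0.54, limma adjusted p = 0.14) and Pdgfra (-1.12, limma adjusted p = 0.087) were not called, and for Pdgfra the cKO lenses stood apart (log2 7.31 and 6.02 in cKO A and B, 7.80 and 7.76 in Control A and B). No probe of the red blood cell genes was called by limma (0 of 10, with 0 at an unadjusted p under 0.05). Their summed signal was 2835.5 and 1175.4 in cKO A and B and 2061.8 and 1610.6 in Control A and B, and their median difference was -0.54 without cKO A and 0.56 without cKO B. No retina or pigment cell gene had a kept probe. The part of vessel tissue and of lens epithelium in these results was not tested.

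The members other than B2m lie in the H2 region of chromosome 17. In RefSeq gene order on GRCm38.p6, the interval from Tapbp to H2-T23 held 74 genes with 117 kept probes, of which 9 were called elevated and 3 reduced (10.3%). Leaving out members and the pathway lists, 60 genes had 96 kept probes, with 7 elevated and 2 reduced (9.38%, beside 11.5% of all probes) and a median difference of 0.05. The 3 largest increases among these were in the early response gene Ier3 (1.47, limma adjusted p = 0.0092), the class I gene H2-K2 (1.06, 0.038) and the tubulin acetyltransferase Atat1 (1.04, 0.022). The H2-K2 probe, listed in the files as EG630499 and sharing 24 bases with the H2-T23 pair, read 289.7 and 211.2 in cKO A and B against 87.8 and 91.0 in Control A and B. The H2-T23 probes did not follow it. The receptor kinase Ddr1 fell by 0.97 (limma adjusted p = 0.038) and Sapcd1 fell by 0.76 (0.035). Near B2m, within 1 Mb on chromosome 2, the chromosome that also carries Celf1, 20 genes outside the members and lists had 27 kept probes. Of these 0 were elevated by limma and 1, the sorbitol dehydrogenase gene Sord, was reduced (-0.98, limma adjusted p = 0.015), which is 3.7%.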

How the data were processed

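RNA of 4 lenses was hybridised to Illumina MouseWG-6 v2.0 BeadChips. The 2 deposited tables hold the intensity of each probe, with its bead number and standard error. Per the file headers, 1 is unnormalized and 1 is rank-invariant normalized. Detection p-values, computed by the authors' scanner software (GenomeStudio), came from the normalized table. Probes on 18 shifted lines of the unnormalized table were left out. Intensities were background-corrected by normexp on detection p-values (offset 16), quantile normalized on the log2 scale and fitted with limma 3.58.1 in R 4.3.3 probe by probe, without blocks, adjusting over 16262 probes. The study averaged probes per gene and used a count model, which intensities do not suit; gene averages were an alternative. On simulated data for this comparison with 16262 probes, 45% of changes of 1 (log2) and 75.8% of changes of 1.5 were recovered. For changes of 2.5 the share was 77.6%. No recovered change had the wrong sign, and 5.96% of the simulated calls fell on unchanged probes. The simulation changed fewer probes than were called in the data and gave a probe the same spread on every array. It therefore does not give the error rate of the calls in these data.

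Members and lists were chosen with earlier results of these data known. Beyond members, at most 3 called probes per direction and list were named by size, with Celf1, Xist and Ddx3y as label checks, and list genes without a call as examples. Neighbours were taken from RefSeq gene order (GRCm38.p6), since deposited probe positions mix builds. Probes were named through Entrez identifiers, transcript accessions and symbols. The letters A and B are not stated to pair samples; the correlation of their differences between groups was -0.01.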

Additional observations from a re-analysis of the deposited data

How the results depend on the processing

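The numbers of probes called depended on the processing. Of all probes 1876 were called, 8348 without normalization, 7858 with the same median on each array, 3937 with equal medians of the probes detected on every array (chosen after seeing the data), 137 without a detection filter, and 12 (without Control B) to 1180 (without Control A) with 1 array left out. Member probes called elevated numbered 4 and fell to 2 without a detection filter and to 2 genes with gene averages, and to 2 to 4 with 1 array left out. Member probes called reduced numbered 1, against 0 without a detection filter, 5 with equal medians of detected probes, and 0 to 2 with 1 array left out. Pathway probes called elevated (3) became 19 without normalization, 17 with the same median, 1 without a filter, 5 with the replicate letters as a block, and 0 to 2 with 1 array left out. Those called reduced (1) became 2 in the deposited normalized table, 0 without normalization, with the same median or without a filter, 5 with equal medians of detected probes, and 0 with any 1 array left out. As the letters are not stated to pair samples, the replicate block is only a variant: it gave 2703 calls over all probes, and 4 elevated and 1 reduced among the members.

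Direction reversed for H2-K1 with equal medians of detected probes (-0.34) and with 1 array left out (-0.045 without Control B to 0.40 without Control A), for H2-T23 819 without normalization (0.063), with the same median (0.025) and with 1 array left out (-0.62 without Control A to 0.0079 without Control B), for Psmb8 with equal medians of detected probes (-0.25), and for Nlrc5 without normalization (0.11) and with the same median (0.067). Of the alternative values for called probes outside the members, 164 kept their direction and call, 79 kept the direction only and 2 reversed (both of Nlrc5). The cause was not tested. The 2 arrays per group limit every member, and signals close to background also limit H2-K1, H2-T23, Tapbp, Psmb8, the Control level of H2-D1 1084 and the cKO level of H2-Eb1.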
